A study of Caenorhabditis elegans with 18 samples.

Results

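*C. elegans* of strain DLS492, which carry both *lin-29(n333)* and *fbxl-5(rhd43)*, were compared with wild-type N2 to describe what stays abnormal when both genes are lost. All 3 libraries of each genotype were taken by their labels, which gives 6 of the 18 libraries of the series, and 13472 of 24998 genes were tested, those whose normalized count averaged 10 or more across all 18 libraries. Every library held polyA RNA from whole hermaphrodites on day 1 of adulthood, about 72 hours after synchronization at the L1 stage, grown at 20°C on *E. coli* OP50 with 5000 animals per plate. The animals differed in the 2 mutations alone as far as the labels say: *lin-29(n333)* is a mutation of a heterochronic gene, and *rhd43* is a nonsense mutation in *fbxl-5* that came from an EMS mutagenesis screen. The *lin-29(n333)* and *fbxl-5(rhd43)* single mutants, with 3 libraries each, were used for values side by side. Another 6 libraries entered the fit and the comparison of spread: 3 of *rict-1(mg360)* and 3 of the double mutant of *rict-1(mg360)* and *fbxl-5(rhd43)*. Each genotype is a single strain grown as a population, so differences between strains other than the named mutations cannot be told apart from the mutations.

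LIN-29 is a zinc-finger transcription factor at the end of the heterochronic pathway. It acts in the hypodermis at the passage from the last larval stage to the adult, when the seam cells stop dividing and fuse, the molting cycle ends and the adult cuticle with its own collagens is made. In the same period the intestine starts to make vitellogenins, the yolk lipoproteins that oocytes take up. FBXL-5 is an F-box protein with leucine-rich repeats, and F-box proteins bring substrates to SCF ubiquitin ligases, built from a cullin, a Skp1-related protein and a RING protein.

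Reads assigned to genes ran from 13434120 to 20042071 in the double mutant and from 19100249 to 23516614 in wild-type. The double mutant libraries were not alike. Replicates 1 and 3 lay furthest apart. A range of more than 4-fold between the 3 double mutant libraries, with an average of 100 or more in the 6 libraries, was found for 146 genes. Of these, 106 were highest in replicate 3, the shallowest, 108 were lowest in replicate 1, and 64 were called lower in the double mutant. Among the single mutants, *lin-29* replicate 3 stood apart, being the lowest in 85 of 98 such genes. In wild-type, 57 genes had such a range, with replicate 2 the highest in 50 and replicate 3 the lowest in 53, and 55 of these 57 were called higher in the double mutant. Whole animals were sequenced, so fewer cells of a type and less RNA per cell cannot be told apart. Reads shared by near-identical genes (*vit-3*, *vit-4* and *vit-5*, the *ssq* genes, the Skp1-related genes) may have been split between them, and the library kit does not mark strand, so overlapping and antisense genes cannot be told apart either.

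Of 13472 genes, 5250 were called by limma at a false discovery rate of 1% after Benjamini-Hochberg adjustment (39.0%), with 2622 higher (19.5%) and 2628 lower (19.5%) in the double mutant than in wild-type. The called genes that rose did so by more: their median log2 fold change was 1.60, against -0.61 for those that fell. More than an 8-fold change was seen for 606 genes that rose and 84 that fell, and a log2 change beyond 5 for 194 and 5. All 3 double mutant libraries lay outside the range of the 3 wild-type libraries for 7506 genes (55.7%), above it for 27.7% and below it for 28.0%. Every called gene lay on its called side of the wild-type mean in each double mutant library, which the call from these same libraries largely fixes. The median log2 difference from the wild-type mean was 1.44, 1.74 and 1.53 in replicates 1, 2 and 3 for genes called higher. For genes called lower it was -0.61, -0.65 and -0.60. Values below are normalized counts (reads scaled by the size factor of the library), given for replicates 1, 2 and 3 in order, and fold changes are on the log2(normalized count + 1) scale with n = 3 libraries per genotype. A gene list is described by its counts and the median log2 fold change of its tested members, beside a median of -0.03 over all genes tested. The plot of list medians shows every library.

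**Figure D1:**
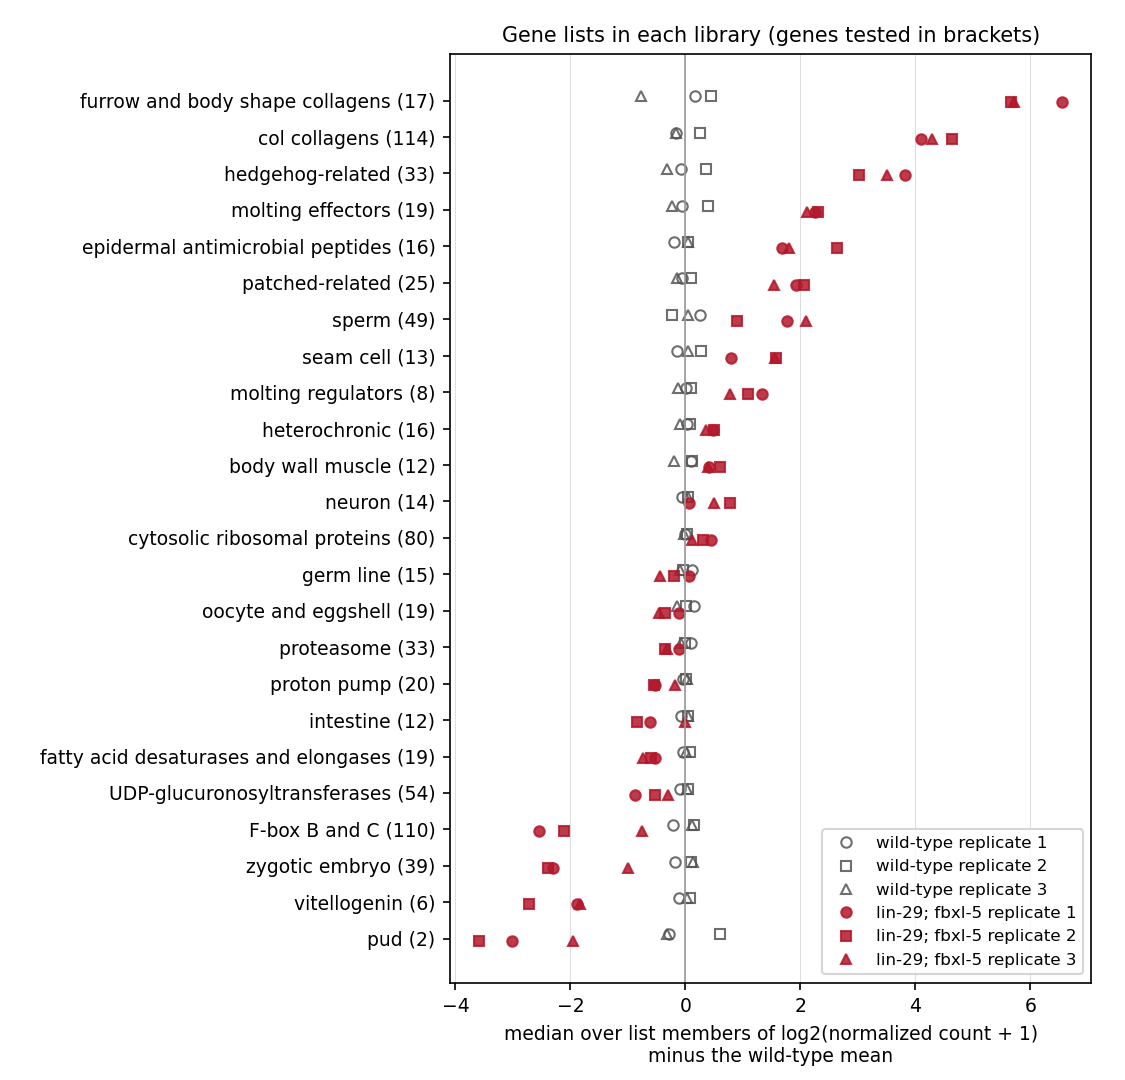
Each point is the median, over the tested members of a gene list, of log2(normalized count + 1) in 1 library minus the wild-type mean, with open gray symbols for the wild-type libraries and filled red symbols for the *lin-29; fbxl-5* libraries (circle, square and triangle for replicates 1, 2 and 3). Collagens, molting and hedgehog-related genes lie to the right in all 3 double mutant libraries, with a median of 5.67 to 6.55 for the furrow and body shape collagens, while the zygotic embryo and F-box B and C lists lie to the left, nearer to wild-type in replicate 3 (-0.99 and -0.75).

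The mutated genes themselves were measured first. Reads were counted on both genes in the mutants, and counts per gene do not show the base changes, so these levels do not check the genotypes. *fbxl-5* (WBGene00020245, chromosome V, 7742909 to 7751369 on the plus strand in WBcel235) was counted at 86.5, 110.1 and 88.1 in wild-type and at 755, 374 and 306 in the double mutant. All 3 double mutant values lay above all wild-type values, replicate 1 the highest, and the change was 2.22 ± 0.25 SE, adjusted p = 3.0e-06. The *fbxl-5* single mutant, at 139, 138 and 141, was lower than the double mutant (difference 1.66 ± 0.25 SE, adjusted p = 5.4e-05, in a comparison where 19.6% of genes were higher), and the *lin-29* single mutant stood at 312, 331 and 551. *lin-29* (WBGene00003015, chromosome II, 11917642 to 11935343 on the minus strand) was at 104.1, 96.0 and 106 in wild-type and 164, 142 and 134 in the double mutant, a difference of 0.51 ± 0.20 SE, adjusted p = 0.037, which did not pass the 1% threshold although the groups did not overlap.

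Collagen genes were among those that rose most. All 17 furrow and body shape collagens (*dpy*, *sqt*, *rol* and *lon* genes, which give the cuticle its annuli and the body its shape) rose, with a median of 6.04, and 83 of 114 *col* genes rose with a median of 4.3 over the list. *dpy-5*, a procollagen gene of this group on chromosome I, had 31.6, 26.9 and 5.45 normalized counts in wild-type and 12466, 7390.2 and 8602 in the double mutant, a change of 9.0 ± 0.86 SE, adjusted p = 1.8e-06. *dpy-13*, another body shape collagen, went from 44.4, 29.3 and 15.4 to 15112, 8517 and 9544 (change 8.56), and *rol-6*, whose mutation makes animals roll, from 5.85, 7.03 and 1.82 to 2934, 1235 and 659.8 (change 7.96). For each of these genes replicate 1 was the highest of the double mutant libraries, as it was for 14 of the 17, and wild-type replicate 3 was the lowest of the wild-type libraries. Among the 83 *col* genes called higher the largest change was 8.80. The 12 genes of highest fold change also held *dpy-4* (8.56), *col-73* (8.61), *col-17* (8.52), *col-41* (8.52), *col-90* (8.37), *col-156* (8.27) and *col-146* (8.17). First among them was *C42D4.3*, at 3.51, 10.5 and 3.63 in wild-type and 3686, 4805 and 2248 in the double mutant (change 9.10 ± 0.60 SE, adjusted p = 2.2e-08). The *lin-29* single mutant was high in the same lists, with a median against wild-type of 6.07 for the furrow and body shape collagens and 4.44 for the *col* genes, and the *fbxl-5* single mutant was not (-0.14 and 0.41). The *lin-29* and double mutant comparisons share the wild-type libraries. Without any 1 of the 6 libraries, 17 of the 17 furrow and body shape collagens and 75 to 83 of the *col* genes were called higher.

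A second set of collagens was low in the double mutant, with libraries that differed from one another by more than 10-fold. It held 14 *col* genes called lower and *col-143* and *col-124*, whose mean log2 values lay more than 3 below wild-type without passing the threshold. *col-19*, the adult-specific collagen that LIN-29 switches on, had 12596, 16244 and 18154 normalized counts in wild-type and 386, 1749 and 11397 in the double mutant. Replicate 1 was far below and replicate 3 just below the wild-type range, and the change of -2.97 ± 0.82 SE, adjusted p = 0.0086 was lost without any 1 library of wild-type, *lin-29* or *fbxl-5*, and without double mutant replicate 1 or 2 (adjusted p = 0.011 to 0.028). *col-119* went from 42421, 59017 and 57094 in wild-type to 259, 3165 and 25899 (change -4.24 ± 1.12 SE, adjusted p = 0.0066). *col-101*, from 24400.2, 30394 and 33898, reached 64.9, 1009 and 11254 (change -5.01 ± 1.28 SE, adjusted p = 0.0054), and *col-181* went from 28441, 37367 and 35984 to 385, 2096 and 14502 (change -3.89 ± 0.87 SE, adjusted p = 0.0022). In all 16 genes but *col-158*, replicate 1 was the lowest double mutant library and replicate 3 the highest. The ratio of replicate 3 to replicate 1 in these 15 genes ran from 13.4 to 673 with a median of 37.7, while the highest library exceeded the lowest by 1.27 to 1.44 times in wild-type, 1.07 to 1.29 times in *fbxl-5* and 1.76 to 4.89 times in *lin-29*. Replicate 3 held 31.5% to 86.3% of the wild-type mean, median 49%, replicate 2 held a median of 8.89% and replicate 1 a median of 1.26%. The 3 *lin-29* libraries held 0.139% to 8.40%, so that replicate 1 of the double mutant lay near them and replicate 3 did not. *col-124* shows the overlap: its wild-type libraries had 12104, 15429 and 14803 and its double mutant libraries 178, 1439 and 12177, so replicate 3 lay inside the wild-type range (difference -3.26 ± 1.02 SE, adjusted p = 0.017). *col-158* went the other way, with 25.7, 17.4 and 10.1 against 248, 220.2 and 323 in wild-type (change -3.89 ± 0.33 SE, adjusted p = 1.6e-07).

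**Figure D2:**
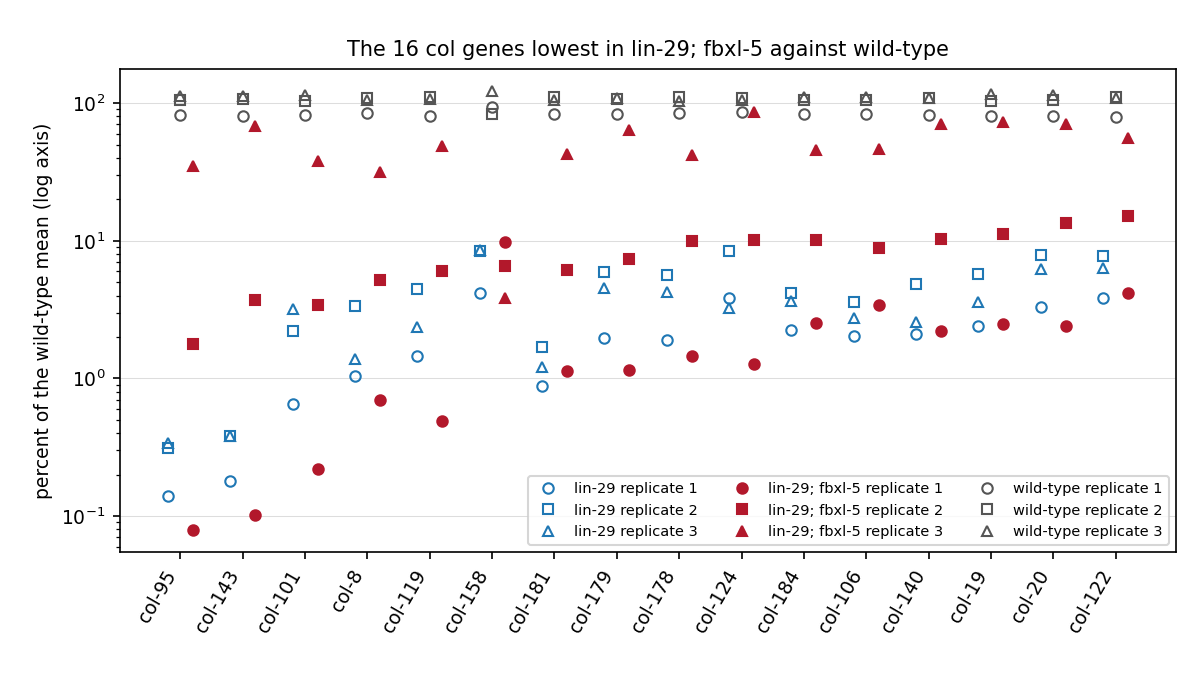
Each point is the normalized count of 1 library as a percent of the wild-type mean of that gene, on a log axis, for the 16 *col* genes lowest in *lin-29; fbxl-5* against wild-type, with gray for wild-type, blue for *lin-29* and red for *lin-29; fbxl-5* (circle, square and triangle for replicates 1, 2 and 3). In 15 of the 16 genes the red triangle lies at 31.5% to 86.3% of wild-type and the red circle at 4.15% or less, with *col-158* the exception.

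The count of *col* genes called lower moved with single libraries. It was 18 without double mutant replicate 3, 11 without replicate 1 and 7 without replicate 2, and 7, 6 and 6 without wild-type replicates 1, 2 and 3. With the spread estimated from the 6 libraries alone it was 1, and it was 2 with edgeR and 4 with DESeq2 (8 without an adjusted p), which called 15.7% and 20.0% of all genes lower. The calls of *col-101* and *col-119* were lost without double mutant replicate 2 or any 1 wild-type library (adjusted p = 0.014 to 0.020). With edgeR the change was -2.78 for *col-101*, -2.52 for *col-181*, -2.37 for *col-119* and -1.73 for *col-19*, and none of the 4 passed the threshold (adjusted p = 0.019 to 0.075). With DESeq2 *col-101* (-2.82, adjusted p = 0.012) and *col-19* (-1.77, adjusted p = 0.022) did not pass either, and with the 6 libraries alone none of the 4 passed (adjusted p = 0.10 to 0.15). *col-143*, at 15930.4, 21319 and 22259 in wild-type and 20.3, 743 and 13641 in the double mutant, was called once replicate 3 was left out (-7.29, adjusted p = 9.1e-05). Genes other than collagens shared this order of libraries. *nuc-1*, a DNase II that degrades the DNA of dead cells, had 1402, 1554 and 1404 in wild-type and 14.9, 50.2 and 545 in the double mutant (change -4.25 ± 0.85 SE, adjusted p = 9.8e-04), with a change of -2.82 by edgeR, and was not called with the 6 libraries alone (adjusted p = 0.076). *Y62H9A.5* had 9459, 10542 and 10734 and 47.3, 277 and 5033 (change -4.65 ± 1.11 SE, adjusted p = 0.0036), and lost its call without double mutant replicate 2 or any 1 wild-type library (adjusted p = 0.011 to 0.016), with the 6 libraries alone (adjusted p = 0.12), with edgeR (-2.46, adjusted p = 0.046) and with DESeq2 (-2.49, adjusted p = 0.019).

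Of the 7 adult cuticle collagens tested, 3 rose and 2 fell, with a median of 0.35, and no member was called lower without wild-type replicate 2 or 3 or double mutant replicate 2. *bli-2*, needed for the struts of the adult cuticle, rose from 9.36, 3.51 and 2.73 to 129.7, 65.6 and 28.8 (change 3.51 ± 0.76 SE, adjusted p = 0.0012), and *col-38* rose from 49.1, 51.5 and 51.8 to 164, 138 and 89.1 (change 1.3 ± 0.29 SE, adjusted p = 0.0013). *col-49* was also called higher (4.51) and *bli-6* lower (-2.14), while *bli-1* had 8.19, 9.37 and 9.09 and 5.41, 14.3 and 12.9 and *col-63* 2.34, 2.34 and 1.82 and 0, 11.3 and 4.31, with overlapping libraries in both cases. The call of *bli-6* ended without wild-type replicate 2 or 3, or without double mutant replicate 2 or 3.

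Genes of the molting cycle and of the hypodermis were also high. Of 19 molting effectors, 12 rose and none fell (median 2.19), and replicate 1 was the highest double mutant library for 11 of the 12. *mlt-9*, needed to shed the old cuticle, had 10.5, 32.8 and 1.82 in wild-type and 1224, 752 and 419.8 in the double mutant, a change of 6.14 ± 0.96 SE, adjusted p = 1.1e-04. *mlt-8* changed by 5.13 and *ptr-4*, a patched-related membrane protein of the apical extracellular matrix, by 5.57. Of 8 molting regulators, 4 rose (median 1.06), among them *lin-42*, the Period homolog that paces the molts, at 109.9, 135 and 107 in wild-type and 1226, 648 and 423 in the double mutant (change 2.56 ± 0.28 SE, adjusted p = 2.5e-06), the grainyhead factor *grh-1* (1.67) and the zinc-finger gene *bed-3* (1.54). Hedgehog-related genes, secreted proteins of which most are made in the hypodermis, rose in 23 of 33 cases and 1 fell (median 3.43), and of the 25 patched-related genes 17 rose and 2 fell (median 1.92), 1 of the latter without wild-type replicate 2 or 3. *grl-16*, a ground-like gene, stood at 14, 43.3 and 10.9 in wild-type and 4736, 2964 and 3797 in the double mutant (change 7.56 ± 0.74 SE, adjusted p = 1.9e-06), and *grd-6* changed by 7.25. For the hedgehog-related genes that rose, replicate 1 was the highest in 19 of 23 and replicate 3 the lowest in 17. The counts of molting effectors and hedgehog-related genes called higher were 11 or 12 and 22 or 23 without any 1 of the 6 libraries.

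In the heterochronic list, 6 of 16 genes rose and none was called lower, with a median of 0.51. Besides *lin-42*, the larval temporal factor *hbl-1* rose from 235, 209.6 and 154 to 762, 1319 and 929 (change 2.31 ± 0.24 SE, adjusted p = 1.7e-06), and *lin-14*, which specifies early larval fates, from 208, 237 and 204 to 276, 493 and 374 (change 0.78 ± 0.18 SE, adjusted p = 0.002). *alg-1*, an Argonaute protein of the microRNA pathway (0.75), the casein kinase gene *kin-20* (0.54) and *ain-1* (0.42) rose less. Replicate 2 was the highest for *hbl-1* and *lin-14* and replicate 1 for *lin-42*. The rest did not pass the threshold: *lin-41* differed by -0.28, *lin-28* by -0.11, *lin-66* by -0.03, *nhl-2* by -0.34, *daf-12* by 0.14, *dre-1* by 0.28, *blmp-1* by 0.54, *mab-10* by 0.51 and *lin-46*, at 9.36, 18.7 and 26.3 and 37.8, 49.2 and 34.5, by 1.21. *lin-14* lost its call without double mutant replicate 2 (0.57, adjusted p = 0.015), and *ain-1* without double mutant replicate 2 or 3 or wild-type replicate 1 or 3. Seam cell genes rose in 6 of 13 cases and 1 fell (median 1.3). *wrt-2*, a hedgehog-related gene of the seam cells, rose from 8.19, 17.6 and 8.18 to 401, 327 and 267 (change 4.82 ± 0.83 SE, adjusted p = 2.0e-04), *cki-1*, a cyclin-dependent kinase inhibitor, changed by 1.68, and *grd-3* fell from 1246, 1471 and 1448 to 87.8, 294 and 477 (change -2.58 ± 0.43 SE, adjusted p = 1.8e-04). Of 15 vulva and uterus genes 7 rose (median 0.40), led by *fos-1*, which the anchor cell uses to invade, at 262, 273 and 285 in wild-type and 827, 978 and 654 in the double mutant (change 1.56 ± 0.12 SE, adjusted p = 6.8e-08). That count was 3 without double mutant replicate 2 and 4 without wild-type replicate 1.

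The vitellogenins stayed below wild-type, to very different degrees. Of the 6 genes 5 were called lower, with a median of -2.15, and the summed *vit* normalized counts of the 3 double mutant libraries were 72.1%, 47.4% and 65.9% of the wild-type mean. *vit-1* had 103858, 110534 and 103885 in wild-type and 10473, 4955 and 7783 in the double mutant (change -3.84 ± 0.23 SE, adjusted p = 7.2e-09). *vit-3* fell by a similar amount (-4.0 ± 0.28 SE, adjusted p = 4.1e-08), *vit-4* by somewhat less (-3.26 ± 0.27 SE, adjusted p = 1.8e-07) and *vit-5*, at 254424, 293975 and 282053 and 153225, 96881 and 163958, by far less (-1.04 ± 0.20 SE, adjusted p = 4.1e-04). *vit-6*, which encodes a yolk protein precursor unlike the others, fell by 0.62 on the log2 scale, from 794211, 891741 and 783017 to 656783, 402913 and 571652, a call that ended without double mutant replicate 2 or any 1 wild-type library (adjusted p = 0.010 to 0.035). *vit-2* had 563399, 630970.1 and 608213 and 568939, 411900.2 and 527905, and its difference of -0.27 ± 0.14 SE, adjusted p = 0.13 did not pass the threshold, replicate 1 of the double mutant lying inside the wild-type range. Replicate 2 was the lowest double mutant library for all 6 genes, and the libraries that were highest and lowest for the collagens, 3 and 1, were close to each other here. Compared with the *lin-29* single mutant, all 6 were higher in the double mutant, by 1.44 for *vit-1*, 0.90 for *vit-2*, 2.28 for *vit-3*, 3.03 for *vit-4*, 2.95 for *vit-5* and 1.02 for *vit-6*, each passing the threshold (784 of 13472 genes, 5.82%, did so in that comparison, and 1.32% were higher). Among yolk regulators and the receptor, 2 of 9 rose and 2 fell (22.2% each, against 19.5% of all genes in each direction). Either count was 1 without double mutant replicate 2 or 3 or wild-type replicate 1. *pqm-1*, a zinc-finger transcription factor of the intestine, rose from 331, 379 and 473 to 1426, 1491 and 1299.5 (change 1.84 ± 0.17 SE, adjusted p = 3.6e-07), and *rme-2*, the oocyte receptor for yolk, fell from 36341, 32182 and 28203 to 25199, 20385 and 19515 (change -0.57 ± 0.14 SE, adjusted p = 0.0032), a call lost without wild-type replicate 1 or 2 or double mutant replicate 2 or 3.

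**Figure D3:**
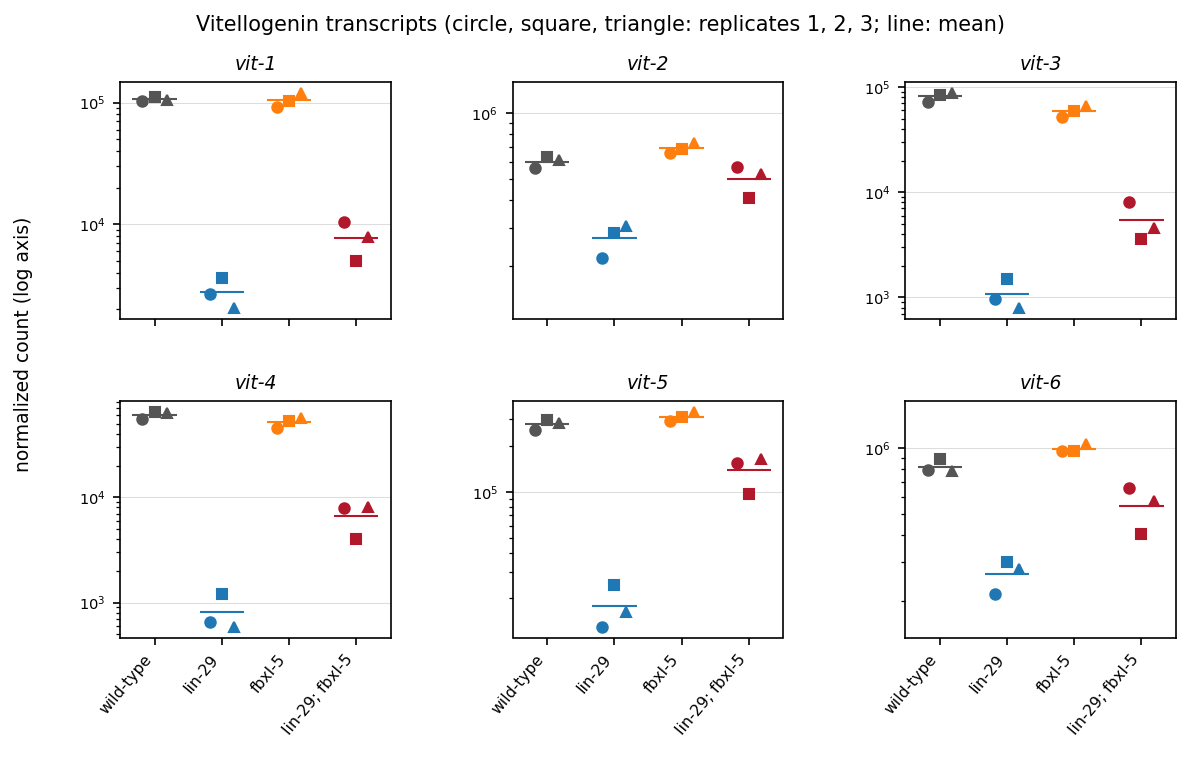
Normalized counts, on a log axis, of *vit-1* to *vit-6* in wild-type, *lin-29*, *fbxl-5* and *lin-29; fbxl-5*, with circle, square and triangle for replicates 1, 2 and 3 and a line at the mean of the 3. The double mutant mean lies between those of *lin-29* and wild-type in each gene. In *vit-2* the double mutant overlaps wild-type, where its replicate 1 has 568939.

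Some genes were abnormal in the double mutant beyond either single mutant. Called in the same direction against wild-type, *lin-29* and *fbxl-5* were 44 genes that were higher (0.327%) and 202 that were lower (1.50%), and the count of lower genes was 381 without double mutant replicate 3, while that of higher genes was 16 without double mutant replicate 2 and 22, 25 and 100 without *lin-29* replicates 1, 2 and 3. Among the 5 that fell most against the nearer single mutant was *gba-4*, a glucocerebrosidase gene, at 961, 1236 and 1406 in wild-type, 1876, 1653 and 1289 in *lin-29*, 1076, 1221 and 1273 in *fbxl-5* and 122, 158 and 415 in the double mutant. Its double mutant libraries all lay below the other 9, and it differed from *lin-29* by -2.98 ± 0.31 SE, adjusted p = 1.2e-05 and from *fbxl-5* by -2.56 ± 0.31 SE, adjusted p = 8.9e-06. *spp-17*, a saposin-like gene, fell from 5981, 7336 and 6649.8 in wild-type to 1008, 984 and 551 in the double mutant (change -3.02, and -2.36 against *lin-29*). *haf-9*, an ABC transporter of the intestinal gut granules, had 539, 702 and 638 in wild-type, 1112, 1037 and 1179.6 in *lin-29*, where it was higher, and 149, 153 and 253 in the double mutant (change -1.79). The C-type lectin gene *clec-265* changed by -3.35 against wild-type and -2.34 against *lin-29*, and *cbl-1*, a cystathionine lyase gene, by -3.12 and -2.22. The difference of *cbl-1* from *lin-29* did not pass the threshold without *lin-29* replicate 1 or 2 (adjusted p = 0.012 and 0.013).

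The 5 that rose most against the nearer single mutant were *valv-1*, *lea-1*, *pho-14*, *ZC239.22* and *Y54G2A.36*. *lea-1*, which encodes a late embryogenesis abundant protein linked to survival of desiccation, stood at 7604, 7528 and 6474 in wild-type, 9175, 9449.9 and 12771 in *lin-29*, 10826, 8626 and 9656 in *fbxl-5* and 26456, 29078 and 24048 in the double mutant (change 1.88 ± 0.15 SE, adjusted p = 7.6e-08). The 3 double mutant libraries were above the other 9. *pho-14*, of the acid phosphatase family, rose from 982, 960.3 and 1042 to 4512, 6633 and 3863 (change 2.29), with *lin-29* replicate 3, at 3421, near its lowest library. *ZC239.22* rose by 3.19, *valv-1* by 1.52 and *Y54G2A.36* by 1.37. The difference from *lin-29* was lost without *lin-29* replicate 1 for *valv-1*, *pho-14* and *ZC239.22*, without *lin-29* replicate 2 for the last 2 of these, without double mutant replicate 2 for all 3, without double mutant replicate 1 for *pho-14* and *ZC239.22*, and without double mutant replicate 3 for *ZC239.22* (adjusted p = 0.011 to 0.034).

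**Figure D4:**
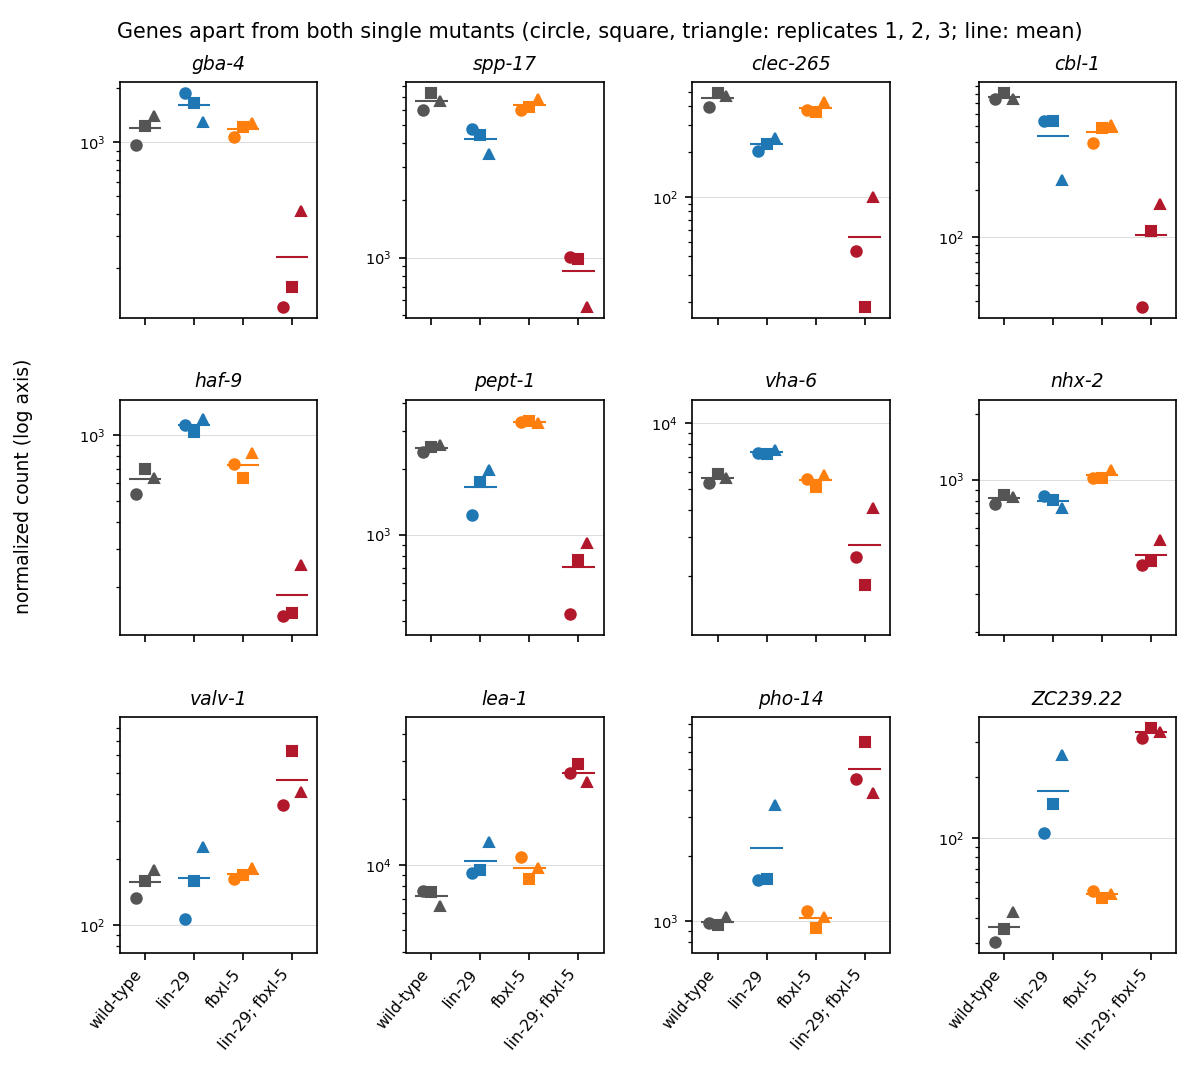
Normalized counts, on a log axis, of 9 genes lower or higher in *lin-29; fbxl-5* than in wild-type and both single mutants by the naming rule (*gba-4*, *spp-17*, *clec-265*, *cbl-1*, *haf-9*, *valv-1*, *lea-1*, *pho-14*, *ZC239.22*) and of 3 intestinal genes, with circle, square and triangle for replicates 1, 2 and 3 and a line at the mean. For *gba-4* the double mutant libraries lie at 122, 158 and 415, below the other 9 libraries, and for *lea-1* at 26456, 29078 and 24048, above them.

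Genes of the adult intestine split. Of 12 intestinal markers 5 fell and 3 rose, with a median of -0.46, and their summed normalized counts were 70.2%, 56.1% and 129% of the wild-type mean in replicates 1, 2 and 3. *pept-1*, the dipeptide transporter of the intestinal lumen, had 2395, 2527 and 2570.3 in wild-type and 434, 768 and 919 in the double mutant (change -1.89 ± 0.21 SE, adjusted p = 2.6e-06), against 1227, 1742 and 1972 in *lin-29* and 3298, 3305 and 3264 in *fbxl-5*. *vha-6*, the intestinal subunit of the proton pump, had 5345, 5826 and 5607 and 2426, 1816 and 4088 (change -1.09 ± 0.18 SE, adjusted p = 1.1e-04), with 7325, 7257 and 7524 in *lin-29*. *nhx-2*, the intestinal sodium-proton exchanger that works with *pept-1*, had 775, 854 and 830.4 and 407, 422 and 528 (change -0.87 ± 0.10 SE, adjusted p = 2.0e-06). The double mutant was lower than *lin-29* (4.50% of genes) and *fbxl-5* (15.9% of genes) in all 3 genes by the same test, and replicate 3 was the highest of its libraries in each. These 3 genes were named by their change from wild-type, which used the same double mutant libraries. The count of markers called higher was 1 without double mutant replicate 2 or wild-type replicate 1 or 2. Of 20 proton pump subunits 16 fell and none rose, but by little (median -0.40, with the 16 genes at a median of 68.4%, 66.9% and 84.7% of wild-type in replicates 1, 2 and 3), and replicate 3 was the highest in 15 of the 16. That count was 8 without double mutant replicate 2, 9 without wild-type replicate 2 and 4 when the spread came from the 6 libraries alone.

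Transcripts of lipid and methyl group metabolism genes fell in part, and others rose. Of 19 fatty acid desaturases and elongases 11 fell and none rose (median -0.58). *fat-7*, a stearoyl-CoA desaturase, went from 2188, 3345 and 2768 to 407, 323 and 388 (change -2.88 ± 0.26 SE, adjusted p = 4.8e-07). *elo-5* and *elo-6*, elongases that make branched-chain fatty acids, fell from 3951, 4822 and 5024 to 620.3, 774 and 1509 (change -2.35) and from 5361, 6354 and 6852 to 677, 869 and 1979 (change -2.55), replicate 3 the highest in both. The *lin-29* single mutant had a median of -0.15 over this list and the *fbxl-5* single mutant -0.04, and *fat-7* itself stood at 744, 828 and 796 and 1153, 1169.6 and 1461 in them. The count of this list was 10 or 11 without any 1 of the 6 libraries. Of 11 genes of the methionine cycle and phosphatidylcholine synthesis 6 fell, among them the S-adenosylmethionine synthetase *sams-1*, from 5395, 6565 and 6000.2 to 2174, 2189.8 and 2283 (change -1.43 ± 0.13 SE, adjusted p = 3.7e-07), *cept-1* (-1.77) and the methyltransferase *pmt-2* (-1.37). The genes of fatty acid activation and oxidation went both ways, 13 higher and 16 lower of 47, with the carnitine palmitoyltransferase genes *cpt-4* (4.29) and *cpt-3* (4.24) and the acyl-CoA dehydrogenase gene *acdh-6* (5.73) the highest by fold. *lipl-2*, a lipase gene, rose by 4.63. *tre-1*, a trehalase gene, fell by 1.09 on the log2 scale, from 3733, 3674 and 3528 to 1693, 1723 and 1732, with the 3 double mutant libraries nearly equal.

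Secreted defense genes were high in the epidermis list and mixed elsewhere. Of 16 epidermal antimicrobial peptides of the *nlp* and *cnc* families 10 rose and none fell (median 2.14), and replicate 2 was the highest for 9 of the 10. *nlp-34* had 11.7, 9.37 and 9.99 in wild-type and 961, 1445 and 879.8 in the double mutant (change 6.56 ± 0.42 SE, adjusted p = 8.8e-09), and *nlp-30* and *cnc-4* changed by 4.96 and 3.27. Of 95 C-type lectins 17 rose (17.9%) and 22 fell (23.2%), near the 19.5% of all genes in each direction, with 11 higher without wild-type replicate 1. *clec-60* rose from 5.85, 2.34 and 0 to 296, 351 and 260.2 (change 6.73 ± 0.53 SE, adjusted p = 7.8e-08), while *clec-97* fell from 395, 460.3 and 513 to 13.5, 23.6 and 155 (change -3.57 ± 0.56 SE, adjusted p = 1.1e-04). Of 12 lysozymes 4 rose and 5 fell: *lys-3* rose from 12.9, 21.1 and 15.4 to 354, 470.3 and 313 (change 4.45) and *ilys-5* fell from 11478, 12978 and 14245 to 5027, 2446 and 4054 (change -1.80). Among infection response genes *irg-2* rose by 2.72, and *C17H12.8* had 1931, 2307 and 2664 in wild-type, 2937, 2438 and 2577 in *lin-29*, 346, 436 and 389 in *fbxl-5* and 235, 159 and 296 in the double mutant (change -3.35 ± 0.19 SE, adjusted p = 3.4e-09). There the *lin-29* libraries overlapped wild-type and the double mutant lay below the *fbxl-5* libraries (difference -0.80 ± 0.19 SE, adjusted p = 0.0021). *pud-3*, a gene first described as raised in a dauer-pathway mutant, was likewise low in the double mutant, at 12.2, 12.3 and 48.9 against 181, 396 and 204 in wild-type, although *lin-29* stood at 1275, 1022 and 1160.0 and *fbxl-5* at 4.82, 5.78 and 8.0.

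Among detoxification genes, 23 of 54 UDP-glucuronosyltransferases fell and 8 rose (median -0.57), and of the 23 that fell replicate 3 was the highest in 21 and replicate 1 the lowest in 18. *ugt-65* went from 131, 131 and 125 to 5.41, 8.2 and 27.3 (change -3.46 ± 0.38 SE, adjusted p = 2.0e-06). Cytochrome P450 genes had 19 of 58 higher (32.8%) and 12 lower (20.7%, against 19.5% of all genes), the latter 7 without wild-type replicate 2. *cyp-25A1* fell from 338, 301 and 346 to 20.3, 12.3 and 61.8 (change -3.66 ± 0.36 SE, adjusted p = 6.9e-07) and *cyp-13A5* rose by 4.49. Of 31 glutathione S-transferases 4 rose (12.9%, 2 genes without wild-type replicate 1) and 8 fell (25.8%), against 19.5% of all genes in each direction. Nuclear hormone receptors rose in 46 of 166 cases and fell in 18 (11 without wild-type replicate 2), among them *nhr-114*, from 3041, 3496 and 3428 to 1062, 504 and 671 (change -2.22 ± 0.20 SE, adjusted p = 3.3e-07). Insulin-like peptides rose in 7 of 15 cases and none fell (median 0.83), with *ins-23* at 7.02, 10.5 and 9.09 in wild-type and 120.3, 207 and 114 in the double mutant (change 3.87 ± 0.33 SE, adjusted p = 1.8e-07) and *ins-7* at 2.65.

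Transcripts of early embryos and of the F-box B and C families were low. Of 39 zygotic embryo genes, transcribed in embryos held in the uterus, 29 fell and 1 rose (median -2.04), and their summed counts were 42.9%, 42.9% and 56.6% of the wild-type mean. *med-1* and *med-2*, below the filter, had no reads in any double mutant library, and *med-2* had none in wild-type either (both were chosen after their values were seen). *pes-10*, an early zygotic transcript, had 201, 234 and 279.8 in wild-type and 13.5, 8.2 and 57.5 in the double mutant (change -3.58 ± 0.61 SE, adjusted p = 1.9e-04), and *sdz-30* and *vet-6* changed by -3.03 and -2.77. The list median per library was -2.30, -2.38 and -0.99 in the double mutant and -0.98, -0.95 and -2.30 in *lin-29*, so the library that differed was replicate 3 in both genotypes, in opposite directions. F-box B and C genes followed the same libraries: 58 of 110 fell and 3 rose (median -1.95), with medians of -2.54, -2.11 and -0.75, and replicate 3 was the highest in 50 of the 58. The Skp1-related gene *skr-10* had 319, 383 and 389 and 60.8, 52.3 and 157 (change -2.18 ± 0.38 SE, adjusted p = 2.1e-04), and 11 of 25 cullin and Skp1-related genes fell. The F-box A family had 18 of 93 genes higher (19.4%) and 15 lower (16.1%), near the 19.5% of all genes in each direction. The number of F-box B and C genes called lower was 37, 33 and 79 without double mutant replicates 1, 2 and 3 and 37 without wild-type replicate 2 or 3, and that of zygotic embryo genes 23, 21 and 30 without the double mutant replicates and 15 with the 6 libraries alone. Embryos per animal were not analysed here, and their part in these values was not tested.

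Of 15 germ line markers 1 rose (6.67%) and 2 fell (13.3%), below the 19.5% of all genes in each direction. These counts were 0 to 2 and 0 to 3 without any 1 of the 6 libraries. Of 19 oocyte and eggshell genes 4 fell (21.1%, against 19.5% of all genes) and none rose (median -0.30), and 8 fell without double mutant replicate 1. *oma-2*, needed for oocyte maturation, went from 15396, 14329 and 13609 to 9693, 8219 and 7866 (change -0.75 ± 0.11 SE, adjusted p = 2.1e-05), and *chs-1*, the chitin synthase of the eggshell, changed by -0.74. Sperm genes rose in 23 of 49 cases and 1 fell (median 1.60), replicate 3 being the highest in 16 of the 23 and replicate 2 the lowest in 18. *ssq-1* rose from 60.8, 30.5 and 39.1 to 179.7, 88.1 and 269 (change 1.93 ± 0.47 SE, adjusted p = 0.0027), a call lost without wild-type replicate 2 or 3 or double mutant replicate 1 or 3. The number of sperm genes called higher was 12 and 11 without double mutant replicates 1 and 3 and 9 without wild-type replicate 2.

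Differences of ribosomal and proteasome genes from wild-type were small, and the calls depended on the libraries. Of 80 cytosolic ribosomal protein genes 19 rose (23.8%, against 19.5% of all genes) and none fell, with a median of 0.28, against 0.19 in *lin-29* and 0.49 in *fbxl-5*. *rpl-19* had 20980.5, 22467 and 21089.6 in wild-type, 43573, 38125 and 32830.4 in the double mutant and 37715, 40648 and 40427 in *fbxl-5* (change 0.82 ± 0.13 SE, adjusted p = 6.9e-05). Replicate 1 was the highest in 17 of the 19 and replicate 3 the lowest in 17, and the list median was 0.44, 0.30 and 0.11 in replicates 1, 2 and 3. The count was 36 without double mutant replicate 3, 9 and 10 without replicates 1 and 2, and 9, 10 and 8 without wild-type replicates 1, 2 and 3. Of 33 proteasome genes 12 fell (median -0.28), 1 and 6 without double mutant replicates 2 and 3, 3 and 6 without wild-type replicates 1 and 2, and 0 with the 6 libraries alone. Of 69 mitochondrial ribosomal protein genes 10 fell (14.5%) and 2 rose (2.90%), below the 19.5% of all genes in each direction (median -0.12). The largest fall was that of *mrpl-23*, from 737, 896 and 926 to 368, 453 and 439.9 (change -1.02 ± 0.12 SE, adjusted p = 4.7e-06). The number of mitochondrial genes called lower was 5 without double mutant replicate 2 or wild-type replicate 3.

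Markers of other tissues were mostly near or above wild-type. Body wall muscle markers rose in 4 of 12 cases and none fell (median 0.48), with summed counts of 117% to 142% of the wild-type mean: *myo-3*, a myosin heavy chain, went from 1758, 1595 and 1028 to 2951, 4092 and 3479 (change 1.29 ± 0.23 SE, adjusted p = 2.8e-04), and *mup-2* and *lev-11* changed by 1.28 and 0.77. Neuronal markers rose in 5 of 14 cases (median 0.40, sums 134% to 165% of wild-type), with *unc-64*, the syntaxin of the synapse, at 291, 344 and 402 and 716, 842 and 739 (change 1.15 ± 0.11 SE, adjusted p = 6.4e-07). Of 9 hypodermal markers 5 rose, *rol-6* and *dpy-7* among them, and 1 of 7 pharyngeal markers rose, *pha-4* (1.24). No list of these 4 tissues had a gene called lower. Their part in the results on the other lists was not tested.

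The spread between the 3 double mutant libraries was the widest of the 6 genotypes by its median. Over the 13472 genes the median SD of log2(normalized count + 1) was 0.247 in the double mutant, 0.216 in *lin-29*, 0.192 in *rict-1*, 0.147 in wild-type, 0.136 in *rict-1; fbxl-5* and 0.110 in *fbxl-5*. These medians are given as a description and were not tested. An SD above 1 was found for 714 genes (5.30%) in the double mutant and 789 (5.86%) in *lin-29*, against 135 to 290 in the other genotypes. Between pairs of double mutant libraries, 387 of 8987 genes differed by more than 2-fold for replicates 1 and 2, 555 for 1 and 3, and 354 for 2 and 3, so each pair differed, and 462 of the 555 were higher in replicate 3. In *lin-29* 1 library stood apart, with 83 genes for replicates 1 and 2 and 648 and 549 for the pairs with replicate 3. The wild-type pairs had 72 to 148 such genes and the *fbxl-5* pairs 32 to 59. Without double mutant replicate 1 or 3 the median SD of the remaining pair was 0.187 or 0.180, and without replicate 2 it was 0.251.

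**Figure D5:**
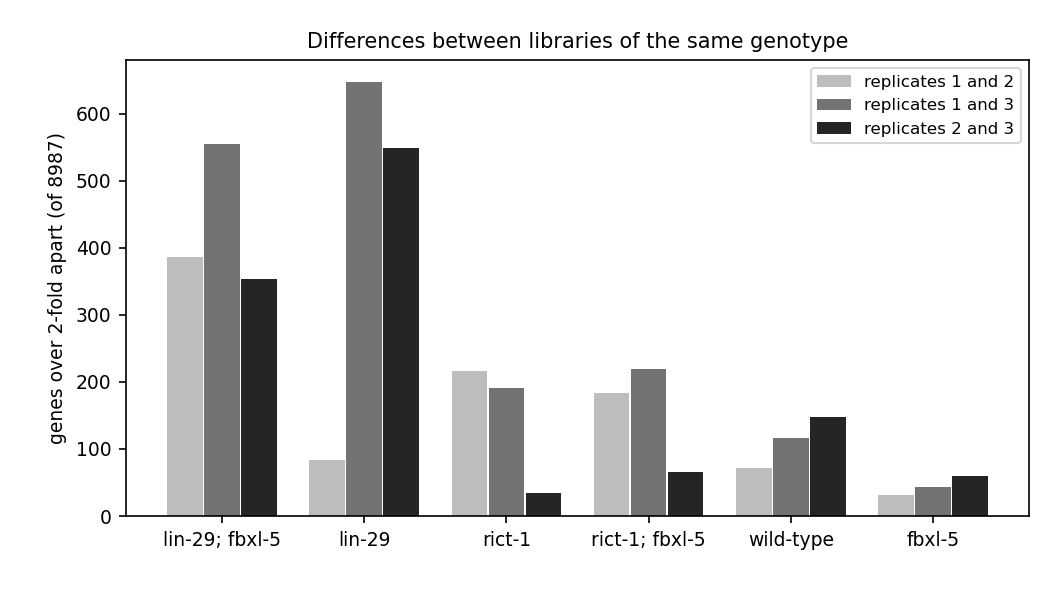
Bars give the number of genes, of 8987, that differed by more than 2-fold between 2 libraries of the same genotype, for replicates 1 and 2, 1 and 3, and 2 and 3, in 6 genotypes. All 3 bars of *lin-29; fbxl-5* reach at least 354, whereas *lin-29* has 1 low bar of 83 and bars of 648 and 549.

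The genes with the widest range fell into groups. Of the 146 genes with more than a 4-fold range, 64 were called lower in the double mutant, and 61 of these were highest in replicate 3, the low collagens among them. A further 26 were called higher, 11 of them highest in replicate 1, 12 in replicate 2 and 3 in replicate 3, and 56 were not called, 42 of them highest in replicate 3. *hrg-7*, a secreted protease that takes part in heme signaling between tissues, had 1178, 1258 and 789 in wild-type and 145, 538 and 7229 in the double mutant, so replicate 1 lay below and replicate 3 above all wild-type libraries (difference -0.35 ± 0.97 SE, adjusted p = 0.78). Without replicate 3 it was called lower (-1.91, adjusted p = 0.0036), and the sign turned without replicate 1 (0.90). *ugt-18* stayed on 1 side, at 4.68, 4.68 and 4.54 and 54.1, 57.4 and 611, replicate 3 the highest (change 4.47). *rrn-2.1*, a ribosomal RNA gene that polyA selection should remove, had 489, 26791 and 910.0 in the double mutant and 536, 492 and 3026 in wild-type, and ribosomal RNA took 0.464%, 2.80% and 0.659% of the reads of the 3 double mutant libraries. With the spread shared over the 18 libraries, of genes more than 4-fold apart from wild-type and an average of 100 or more in the 6 libraries, 513 were called and 4 were not (*col-124*, *col-143*, *grd-13* and *ifp-1*, of which the last 2 were chosen after their values were seen). The order of the libraries was not shared by all groups. Replicate 1 was the highest for most of the furrow collagens, molting effectors, hedgehog-related and ribosomal protein genes that rose, replicate 2 for most of the antimicrobial peptides, and replicate 3 for most of the low collagens, UDP-glucuronosyltransferases, proton pump, embryonic and F-box B and C genes, where it lay nearer to wild-type. Of the double mutant libraries replicate 2 was the deepest and held most ribosomal RNA and replicate 3 was the shallowest, and the part of depth in these orders was not tested.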

How the data were processed

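PolyA RNA of whole animals was sequenced in 18 libraries (single-end, 50 bp). Per the labels and the study's methods, the authors aligned reads to WS260 and counted them per gene with STAR and featureCounts (versions not given in the sources used here), and deposited counts divided by DESeq2 size factors as a normalized signal. Whole reads were recovered for 100% of values (tolerance 0.01), with 0 columns left out. Further deposited tables hold the authors' own fold changes and p-values and were not used. log2(value + 1) was fitted with limma 3.58.1 (R 4.3.3, mean trend, robust, 18 libraries, 1 mean per genotype), adjusted by Benjamini-Hochberg over 13472 genes and called at a false discovery rate of 0.01. On the recovered reads edgeR 4.0.16 called 4947 genes and DESeq2 1.42.0 called 5604. Other alternatives were pseudocounts of 0.5 and 5, filters, TMM, array weights, the 6 libraries alone, a replicate block and leaving out each library. Tests were tried on simulated data.

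Samples were grouped by genotype label. The members and gene lists were chosen with earlier results of these data known. Genes were named by rule: the mutated genes and *vit-1* to *vit-6*; the 12 that rose and 12 that fell most with a mean of at least 100 and groups that did not overlap; up to 3 called members per list with a mean of at least 50, and all heterochronic and adult cuticle members; the 12 of largest SD in the double mutant; and the 5 per direction most apart from both single mutants. Symbols matched 92.7% of identifiers, and positions are from WBcel235. The labels call the libraries biological replicates. Depth ran from 13434120 to 29733059 reads per library. SEs come from the fit, in which the 18 libraries share an estimate of the spread for each gene. They can therefore understate the spread of the double mutant, which was the widest by its median.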

Additional observations from a re-analysis of the deposited data

Results flagged for a closer look

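Some genes named above responded to loss of *lin-29* by different amounts in the 2 backgrounds, by the interaction term of the limma fit at a false discovery rate of 1% (323 of 13472 genes, 2.40%). The value given is the log2 change on loss of *lin-29* in *fbxl-5* animals minus that in *fbxl-5(+)* animals. It was above 0 for *vit-3* (2.7446), *vit-4* (3.2725) and *vit-5* (2.7865), near-identical genes whose *lin-29* single mutant values were lower than those of the double mutant. It was below 0 for *gba-4* (-2.9838), *haf-9* (-2.8481), *spp-17* (-2.2868), *pept-1* (-1.6581), *vha-6* (-1.4623) and *nhx-2* (-1.1798), which were lower in the double mutant than in either single mutant. *gba-4*, *haf-9* and *spp-17* were named by a rule that used these comparisons, so for them the term is a description. *pept-1*, *vha-6* and *nhx-2* were named by the size of their change from wild-type. That change shares libraries with the term, so it is a description for them too. The groups of 3 libraries are too small for the test of a single library standing apart.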

How the results depend on the processing

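Against 5250 genes called, a fit of the 6 libraries alone called 3347 (1324 lower), and 2660 of the 5250 changed more than 2-fold (766 of those called lower). Leaving out 1 library gave 4092 to 5749 calls, 2119 to 2920 higher and 1973 to 2829 lower. Genes higher than wild-type and both single mutants numbered 44, with 90 by DESeq2, 310 with array weights (whose fit gave a warning that it had not converged) and 16 to 100 without 1 library, and lower genes numbered 202, with 694 under array weights and 145 to 381 without 1 library. The median SD of the double mutant was 0.247, with 0.180 to 0.251 without 1 of its libraries. With the replicate number as a block 5649 genes were called in 18 libraries and 3891 in 6. Same-numbered libraries of the 2 genotypes correlated at 0.226, 0.0996 and 0.149 in their deviations from the group means, and each double mutant library correlated best with the wild-type library of its own number, a hint from the data only. Of 124 genes named in the text, 5 that were not called changed sign: *lin-66* (-0.03) was at 0.020 with edgeR and at -0.11 to 0.017 without 1 library, and *hrg-7* (-0.35) at 1.36 with edgeR, 1.32 with DESeq2 and -1.91 to 0.90 without 1 library. Without 1 library *col-63* (0.35) was at -0.45 to 1.36, *bli-1* (0.17) at -0.063 to 0.57 and *rrn-2.1* (1.3) at -0.47 to 2.41, each lowest without double mutant replicate 2. Genes averaging under 10 normalized counts carry few reads and were left out, and 5171 genes were called with no such filter. The causes were not tested.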

Other observations

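Genes called higher were not spread evenly over the chromosomes, at 24.7% of tested genes on X, 23% on V, 19.6% on II, 18.6% on IV, 16.1% on I and 14.8% on III, given as a description with no test. *pud-3*, named in the account of infection genes, changed by -3.58 in the double mutant, 2.22 in *lin-29* and -5.12 in *fbxl-5*, all against the same wild-type libraries. *dod-3* rose from 63.2, 66.8 and 67.2 in wild-type to 469, 312 and 341 in the double mutant (change 2.47 ± 0.16 SE, adjusted p = 1.1e-08). *hmit-1.1*, a proton-dependent myo-inositol transporter of the osmotic response, stood at 42.1, 38.6 and 58.1 in wild-type and 801, 463 and 407 in the double mutant (change 3.52 ± 0.33 SE, adjusted p = 3.4e-07). Of the insulin and mTOR pathway genes 1 of 17 rose and 5 fell: the kinase gene *akt-1* fell by 0.40 on the log2 scale, and the kinase gene *akt-2* rose by 1.33. Genes of the glyoxylate cycle and gluconeogenesis fell in 6 of 14 cases and 1 rose (median -0.31), with 3 called lower without double mutant replicate 2 or wild-type replicate 1 or 2. Of 18 aspartic and cysteine protease genes 3 rose (16.7%) and 4 fell (22.2%), against 19.5% of all genes in each direction. The list median was -0.48, and 11 fell without double mutant replicate 3. Of 23 histone genes 5 rose (21.7%, against 19.5% of all genes) and 1 fell. Neuropeptide genes rose in 3 of 30 cases (10.0%) and 1 fell (3.33%), below the 19.5% of all genes in each direction. Superoxide dismutase, catalase and metallothionein genes rose in 3 of 11 cases (27.3%, against 19.5% of all genes) and none fell.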
